A study of Arabidopsis thaliana with 6 samples.

Results

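Leaves of chilled Arabidopsis thaliana plants grown on soil were set against leaves of plants moved to salt plates, using 4 of the 6 libraries of the series and the 17553 genes listed for both states, of 20297 genes listed for any state. Both states were sampled in the lsm1a lsm1b double mutant and in the Col-0 wild type, at an age of 2 weeks, with 1 RNA-seq library per genotype and state. In the cold state, soil-grown plants spent 24 h at 4 °C in long days at 40 µmol m-2 s-1, after growth at 90 µmol m-2 s-1. In the NaCl state, plants raised on GM medium plates at 90 µmol m-2 s-1 spent 10 h on plates with 150 mM NaCl, and the light during those hours is not given in the labels. Stress, substrate, duration and light therefore differ together and cannot be told apart, so every difference given here is one between sample states. The other 2 libraries come from plates with 55% polyethylene glycol (PEG), a neutral osmotic agent, for 10 h, and appear here only as levels beside some genes. Neither the hour of harvest, nor pooling of plants, nor the names of the mutant alleles is in the labels, and unstressed plants were not analysed here.

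Cold acclimation in Arabidopsis runs largely through the CBF/DREB1 transcription factors, which bind the CRT/DRE element before genes for protective proteins of the COR and KIN kind. Salt and dehydration act largely through the hormone abscisic acid (ABA), whose AREB/ABF factors bind the ABRE element, while the SOS pathway exports sodium and the NHX antiporters store it in the vacuole. The circadian clock sets the daily level of many cold and ABA genes, and LSM1 is a subunit of the cytoplasmic LSM1-7 ring that promotes mRNA decapping and decay.

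Pairs of values below are given for the library labelled lsm1a lsm1b and then for the Col-0 library of a state. CPM are normalised read counts, each library scaled to the same total after TMM normalisation. A log2 difference is the fitted value of cold over NaCl, with genotype as a block, with its standard error (SE), positive where cold was higher. A gene was called where edgeR's quasi-likelihood test gave a Benjamini-Hochberg adjusted p under 0.05 over the 17492 genes that passed the filter on low counts. The genotypes stand in for replicates, so these p-values measure only the spread between these libraries, which holds technical differences and any difference between the genotypes in their response.

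As a check of the labels, LSM1A transcripts (AT1G19120, TAIR10 chromosome 1, 6608115 to 6609369) stood at 1.01 and 18.2 CPM in cold, against 0.511 and 12.8 CPM in NaCl. LSM1B transcripts (AT3G14080, TAIR10 chromosome 3, 4667365 to 4669194) stood at 3.92 and 13.4 CPM in cold, against 18.7 and 9.13 CPM in NaCl. The libraries labelled lsm1a lsm1b were thus far below Col-0 for LSM1A in both states and for LSM1B in cold, whereas in NaCl the library labelled lsm1a lsm1b held more LSM1B than Col-0 and goes against its label for that gene. Neither gene was called between the states, at adjusted p values of 0.222 and 0.516. The 4 totals were 10289392 and 12422329 counts in cold, against 22639128 and 20183174 counts in NaCl. The first principal component separated the states with 65.6% of the variance, and the second separated the genotypes with 24.5%.

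The tissue was checked through markers. Root markers summed to 210 and 155 CPM of all listed counts in cold, against 1823 and 2126 CPM in NaCl. Only 10 of the 28 root markers were listed in cold, against 25 in NaCl, and IRT1, RHD6 and EXPA7 were not listed in cold. PYK10, a beta-glucosidase of root endoplasmic reticulum bodies, made up most of the NaCl sum. After TMM normalisation, which the sums do not use, PYK10 had 141 and 107 CPM in cold, against 1373 and 1750 CPM in NaCl. Without PYK10 the root sums were 73.8 and 58.3 CPM in cold, against 399 and 273 CPM in NaCl. The labels give leaves as the tissue, although the extraction protocol speaks of plants. The NaCl libraries therefore held more RNA of root-marker genes than the cold libraries. Seed markers, mainly storage proteins and oleosins, summed to 5.25 and 1.05 CPM in cold, against 802 and 81 CPM in NaCl, with 1 of 19 listed in cold and 14 in NaCl. Xylem markers summed to 91 and 74.3 CPM in cold, against 315 and 352 CPM in NaCl. Shoot meristem markers were closer, with 110 and 110 CPM in cold and 161 and 144 CPM in NaCl. Guard cell, trichome and flower sums overlapped between the states, and phloem markers summed to 439 and 528 CPM in cold, against 631 and 890 CPM in NaCl. Of the markers that could be tested, 5 of 10 root (3 without genotype as a block), 7 of 10 xylem and 3 of 8 shoot meristem genes were called lower in cold, against 6.36% of all genes tested. ACL5, a thermospermine synthase of the xylem list, was called higher instead (log2 difference 1.83 ± 0.25). Chloroplast-encoded genes took 0.390% and 0.411% of counts in cold, against 1.901% and 1.618% in NaCl. In bulk samples, fewer cells of a type and less RNA per cell cannot be told apart.

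**Figure D1:**
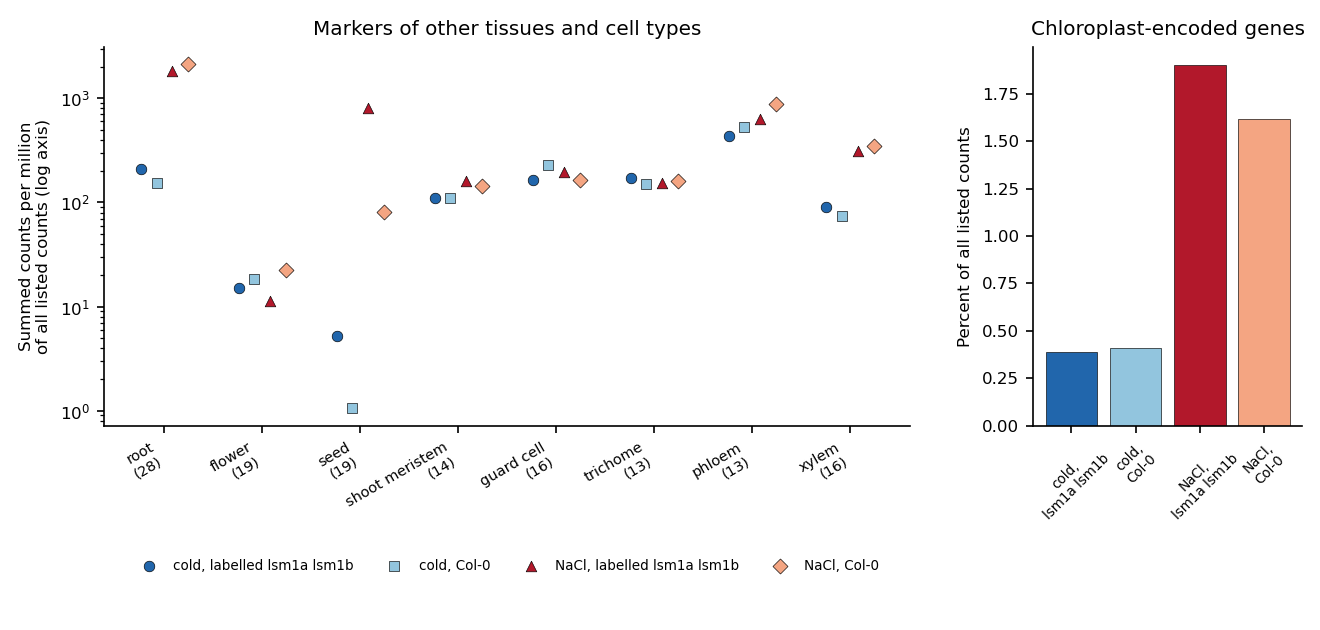
Left, summed CPM of marker genes (log axis; number of genes in brackets) in each of the 4 libraries. Right, percent of counts on chloroplast-encoded genes. Root, seed and xylem sums and the chloroplast share were lower in both cold libraries than in both NaCl libraries.

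Of the 17492 genes tested, 1044 were called higher in cold (5.97%) and 1112 lower (6.36%), together 2156 (12.3%). The shares of 5.97% and 6.36% are the background for every count of list members given below. The called genes changed by at least 0.97 on the log2 scale, with a median absolute difference of 1.78. None had ratios of opposite sign in the genotypes. The spread in the test is the disagreement between the genotypes, so that agreement nearly follows from the test and is not a separate result. A change of 2-fold or more in each genotype taken alone was met by 981 of the higher genes (5.61%) and by 1086 of the lower ones (6.21%). The smallest adjusted p that any gene reached was 0.0216, so all calls lie between that value and 0.05 and the size of a difference says more than its p. Under total count scaling, which shifted the median of all genes to -0.20 from -0.03, higher genes made up 33.9% of the calls, against 48.4% under TMM. The fits below that leave a library out have no genotype block, and a state then holds a single genotype. Their counts therefore differ from those above in model as well as in libraries. The edgeR counts depended on each library: without the lsm1a lsm1b or the Col-0 cold library they fell to 237 and 291 higher and 345 and 203 lower. Without either NaCl library edgeR called 0 genes in each direction, although 1998 or 1866 genes were higher and 1973 or 1951 lower at an unadjusted p under 0.05. In those same libraries DESeq2 called 744 or 673 higher and 605 or 662 lower, and limma-voom called 0, with 2296 or 2213 higher and 2429 or 2432 lower at an unadjusted p under 0.05.

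**Figure D2:**
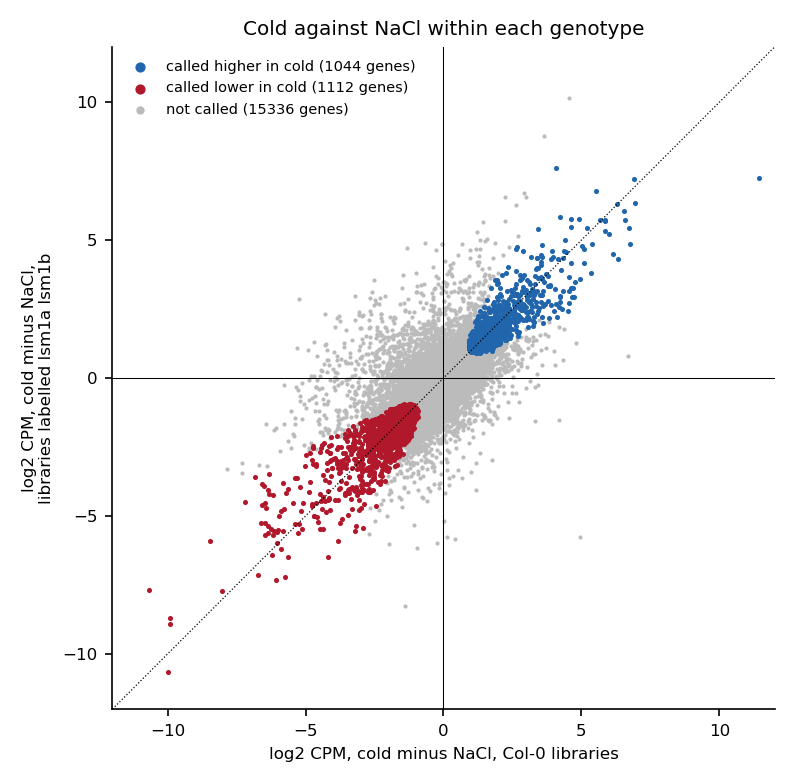
Log2 ratio of CPM, cold over NaCl, in the libraries labelled lsm1a lsm1b (vertical) against Col-0 (horizontal), 1 point per tested gene. The 1044 genes called higher and 1112 called lower lie in the quadrants where both genotypes had the same sign. The test favours such genes, since its spread is the disagreement between the genotypes.

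The 12 genes furthest above NaCl in cold, among those with at least 10 CPM in both cold libraries, are given first. GolS3, a galactinol synthase of the raffinose pathway known for its cold induction, had 379 and 719 CPM in cold, against 2.34 and 0.14 CPM in NaCl (log2 difference 9.03 ± 1.38). The CCA1 gene encodes a morning MYB factor of the circadian clock and had 431 and 466 CPM in cold, against 5.2 and 3.65 CPM in NaCl (log2 difference 6.68 ± 0.31). In both, the states were separated by far more than the genotypes. BBX28 (7.22 ± 0.27), STH (6.33 ± 0.23), COL2 (6.21 ± 0.34) and BBX18 (5.87 ± 0.23) encode B-box zinc finger proteins. ELIP2, a light-stress protein that binds chlorophyll in the thylakoid, had 525 and 612 CPM in cold, against 7.71 and 6.46 CPM in NaCl (log2 difference 6.32 ± 0.29). The remaining 5 were AT5G10760, an aspartyl protease family member (6.44 ± 0.37), AT3G22235, a cysteine-rich TM module protein (5.94 ± 1.10), and the uncharacterized AT2G25510 (6.07 ± 0.48), AT3G44450 (5.95 ± 0.27) and AT5G06980 (5.83 ± 0.62). AT5G10760 and AT3G22235 differed strongly between the genotypes within cold, at 323 and 29.2 CPM in cold, against 2.81 and 0.515 CPM in NaCl for AT5G10760 and 209 and 31.1 CPM in cold, against 0.937 and 1.73 CPM in NaCl for AT3G22235.

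The 12 genes furthest below NaCl in cold, by the same rule on the NaCl libraries, had between 0 and 73 counts in a cold library, so the size of their differences rests on few reads. AT3G02480, a member of the late embryogenesis abundant (LEA) family, had 0.402 and 0.53 CPM in cold, against 834 and 655 CPM in NaCl (log2 difference -10.59 ± 0.37). LEA7, another LEA protein, had 3.52 and 0.265 CPM in cold, against 1743 and 370 CPM in NaCl (log2 difference -9.38 ± 0.50). LTP4, a lipid transfer protein, had 1.51 and 0.442 CPM in cold, against 669 and 543 CPM in NaCl (log2 difference -9.37 ± 0.50). In counts, AT3G02480 had 4 and 6 counts in cold, against 19592 and 13986 counts in NaCl, and LEA7 had 35 and 3 counts in cold, against 40932 and 7897 counts in NaCl. AT2G37870 (-9.04 ± 0.93), AT4G33550 (-6.96 ± 0.79) and AT2G48130 (-6.26 ± 0.34) belong to the lipid-transfer and 2S albumin superfamily. PELPK1 (-6.49 ± 0.51) and AT2G22510 (-6.37 ± 0.24) are annotated as hydroxyproline-rich glycoproteins. The others were AT2G05510, a glycine-rich protein (-8.12 ± 0.31), MLP328 (-7.13 ± 0.36), MIZ1, known for root hydrotropism (-7.08 ± 0.27), and DIR6, a dirigent-like protein (-6.27 ± 0.27). In PEG, AT3G02480 had 4047 and 4928 CPM and LTP4 had 1537 and 1521 CPM, levels on the side of the NaCl plates. Root and seed markers moved with these genes, at 210 and 155 CPM of root markers in cold against 1823 and 2126 CPM in NaCl, and their part in the result was not tested.

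**Figure D3:**
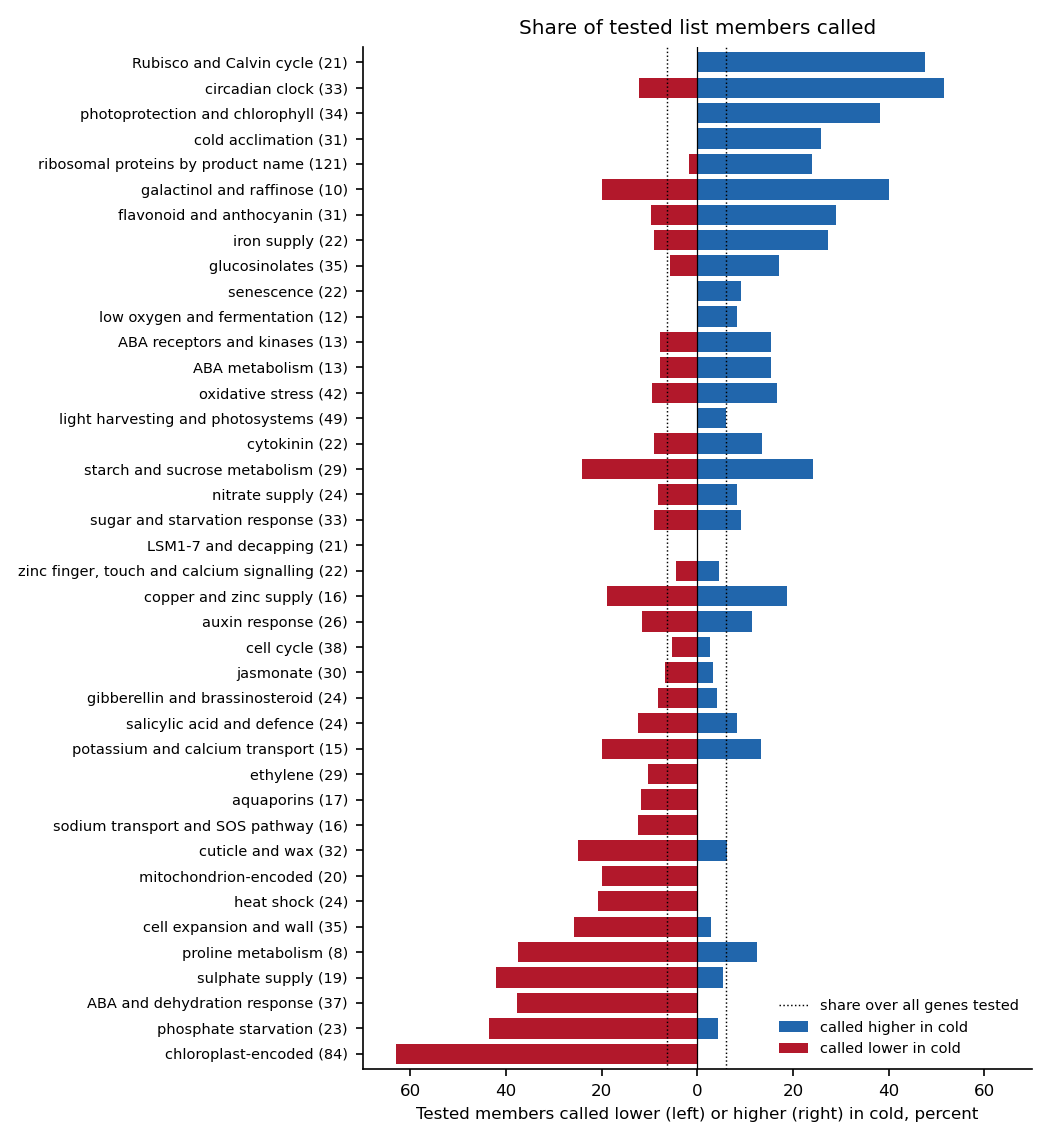
Percent of the tested members of each gene list called higher (right) or lower (left) in cold, with the number tested in brackets. Dotted lines mark the shares over all genes tested, 5.97% and 6.36%. The circadian clock and Calvin cycle lists extend furthest to the right, and the chloroplast-encoded genes extend far to the left.

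Promoters are shown for the 2 highest called members of the cold acclimation list and the 2 lowest called members of the ABA and dehydration list whose windows hold at least 1 of the motifs below, because genes of those lists are known to be regulated through the CRT/DRE and ABRE elements. Each line gives the 250 bases before the transcription start annotated by RefSeq (TAIR10.1), in the direction of the gene. Capitals mark CCGAC (the CRT/DRE core), ACGTG (the ABRE core) and AAAATATCT (the evening element of clock-controlled genes) on either strand, so that a G-box CACGTG is an overlapping pair of ACGTG matches.
GolS3, chr1:3019389-3019638, plus strand: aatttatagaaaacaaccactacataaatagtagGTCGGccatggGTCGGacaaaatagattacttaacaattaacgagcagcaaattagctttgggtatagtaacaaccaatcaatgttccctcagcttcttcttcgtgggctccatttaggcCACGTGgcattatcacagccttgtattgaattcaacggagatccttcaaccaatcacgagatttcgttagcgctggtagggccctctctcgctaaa
KIN2, chr5:5211469-5211718, plus strand: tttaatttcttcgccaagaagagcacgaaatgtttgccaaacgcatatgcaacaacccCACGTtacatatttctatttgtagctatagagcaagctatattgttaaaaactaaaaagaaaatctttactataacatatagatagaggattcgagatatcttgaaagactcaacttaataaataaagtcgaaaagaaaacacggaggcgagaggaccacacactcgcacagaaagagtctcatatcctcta
RAB18, chr5:26519448-26519697, minus strand: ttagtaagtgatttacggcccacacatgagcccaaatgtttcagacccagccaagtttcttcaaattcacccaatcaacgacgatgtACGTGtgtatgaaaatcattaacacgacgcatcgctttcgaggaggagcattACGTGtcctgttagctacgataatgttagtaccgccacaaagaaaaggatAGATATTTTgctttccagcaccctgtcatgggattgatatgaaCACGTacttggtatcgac
LEA7, chr1:19619474-19619723, plus strand: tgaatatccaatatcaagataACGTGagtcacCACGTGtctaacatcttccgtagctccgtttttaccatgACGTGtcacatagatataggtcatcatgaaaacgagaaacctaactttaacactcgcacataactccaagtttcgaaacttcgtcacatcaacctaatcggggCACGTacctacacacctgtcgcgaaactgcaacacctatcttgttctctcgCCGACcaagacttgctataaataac
GolS3 held 2 CCGAC matches, 216 and 205 bases before the start, and a G-box. KIN2 held 1 ACGTG match before its start. RAB18 held 3 ACGTG matches and 1 evening element. LEA7 held 5 ACGTG matches and 1 CCGAC match before its start. In the window from 250 bases before to 50 after the start, 15% of 27443 nuclear protein-coding promoters held CCGAC, 26.7% held ACGTG and 2.82% held AAAATATCT. Among the promoters of genes called higher, 15.9%, 29.8% and 3.65% held these motifs in the same order, and among those called lower 14%, 35.2% and 3.72%. Of the 14 ABA and dehydration genes that were lower, 9 held ACGTG, 4 held CCGAC and 4 held AAAATATCT. Of the 8 cold acclimation genes that were higher, 3 held ACGTG, 1 held CCGAC and 0 held AAAATATCT. The promoters shown were picked for holding a motif, so its presence in them is not a result. A match describes letters in this window and not a bound site.

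In the cold acclimation list, 8 of the 31 tested members were called higher and 0 lower, against 5.97% and 6.36% of all genes, and the median log2 difference of its members was 0.92, against -0.03 over all genes. GolS3, given above, led it. COR15B, a protein that protects chloroplast membranes during freezing, had 1525 and 2790 CPM in cold, against 329 and 234 CPM in NaCl (log2 difference 2.89 ± 0.45). KIN2, a small hydrophilic protein of the same response, had 2601 and 3161 CPM in cold, against 591 and 444 CPM in NaCl (log2 difference 2.48 ± 0.33). Both were higher in each cold library than in each NaCl library. The other called members with the largest differences were RAV1 (1.84 ± 0.20), an AP2 and B3 domain factor, and the RNA chaperones CSDP1 (1.66 ± 0.19) and GRP2 (1.36 ± 0.19). Several textbook cold genes did not pass the test. LTI78 (RD29A) had 6799 and 8271 CPM in cold, against 3243 and 1437 CPM in NaCl (log2 difference 1.80 ± 0.51, adjusted p = 0.0915). COR15A had 5587 and 8681 CPM in cold, against 2663 and 2228 CPM in NaCl (log2 difference 1.52 ± 0.40, adjusted p = 0.0809). COR47, a dehydrin, had a difference of 1.44 ± 0.65, and the CBF genes had differences of -3.13 ± 1.15 for CBF1, 0.75 ± 0.76 for CBF2 and -0.01 ± 0.69 for DREB1A (CBF3). LTI78, COR15A and COR47 are known to respond to dehydration as well, and LTI78 had 2382 and 3178 CPM in PEG. Whether such a response bears on their differences here was not tested. Without the genotype block 5 members were called higher and 1 lower, and under total count scaling 7 and 1. DESeq2 called 14 members of this list higher and 2 lower, limma-voom 10 and 1, and 13 and 1 had an unadjusted p under 0.05.

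The ABA and dehydration list ran the other way: 0 of the 37 tested members were called higher and 14 lower (1 at an unadjusted p under 0.05, 1 by DESeq2 and 0 by limma-voom higher), and its median was -1.29. LEA7, given above, was the lowest. RAB18, the classic ABA-responsive dehydrin, had 45.9 and 43.9 CPM in cold, against 2237 and 1714 CPM in NaCl (log2 difference -5.45 ± 0.30). HAI2, a clade A protein phosphatase 2C of ABA feedback, had 9.86 and 3.18 CPM in cold, against 122 and 130 CPM in NaCl (log2 difference -4.44 ± 0.53). DREB2A, the drought and heat counterpart of the CBF factors, had 14.5 and 5.92 CPM in cold, against 74.7 and 121 CPM in NaCl (log2 difference -3.34 ± 0.59). All 3 were lower in both cold libraries. Next came ERF53 (-3.28 ± 0.44), an AP2/ERF factor, and LEA4-5 (-2.56 ± 0.31). LTI65 (RD29B), whose promoter is a standard ABA reporter, had 75.7 and 154 CPM in cold, against 998 and 579 CPM in NaCl and missed the threshold (log2 difference -2.81 ± 0.55, adjusted p = 0.0526). HAI1 had 8.65 and 1.68 CPM in cold, against 78.9 and 153 CPM in NaCl and also missed it (log2 difference -4.69 ± 0.96, adjusted p = 0.0565). Other members lay near 0, among them RD20 (-0.21 ± 0.25), ABF1 (-0.05 ± 0.34) and RD22 (-0.49 ± 0.30). The seed-marker sum moved with the LEA genes, at 5.25 and 1.05 CPM in cold against 802 and 81 CPM in NaCl, and its part in the result was not tested. GEA6 is a member of both the seed marker list and this list, so the 2 are not independent. It was listed for NaCl only, with 612 and 374 counts.

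**Figure D4:**
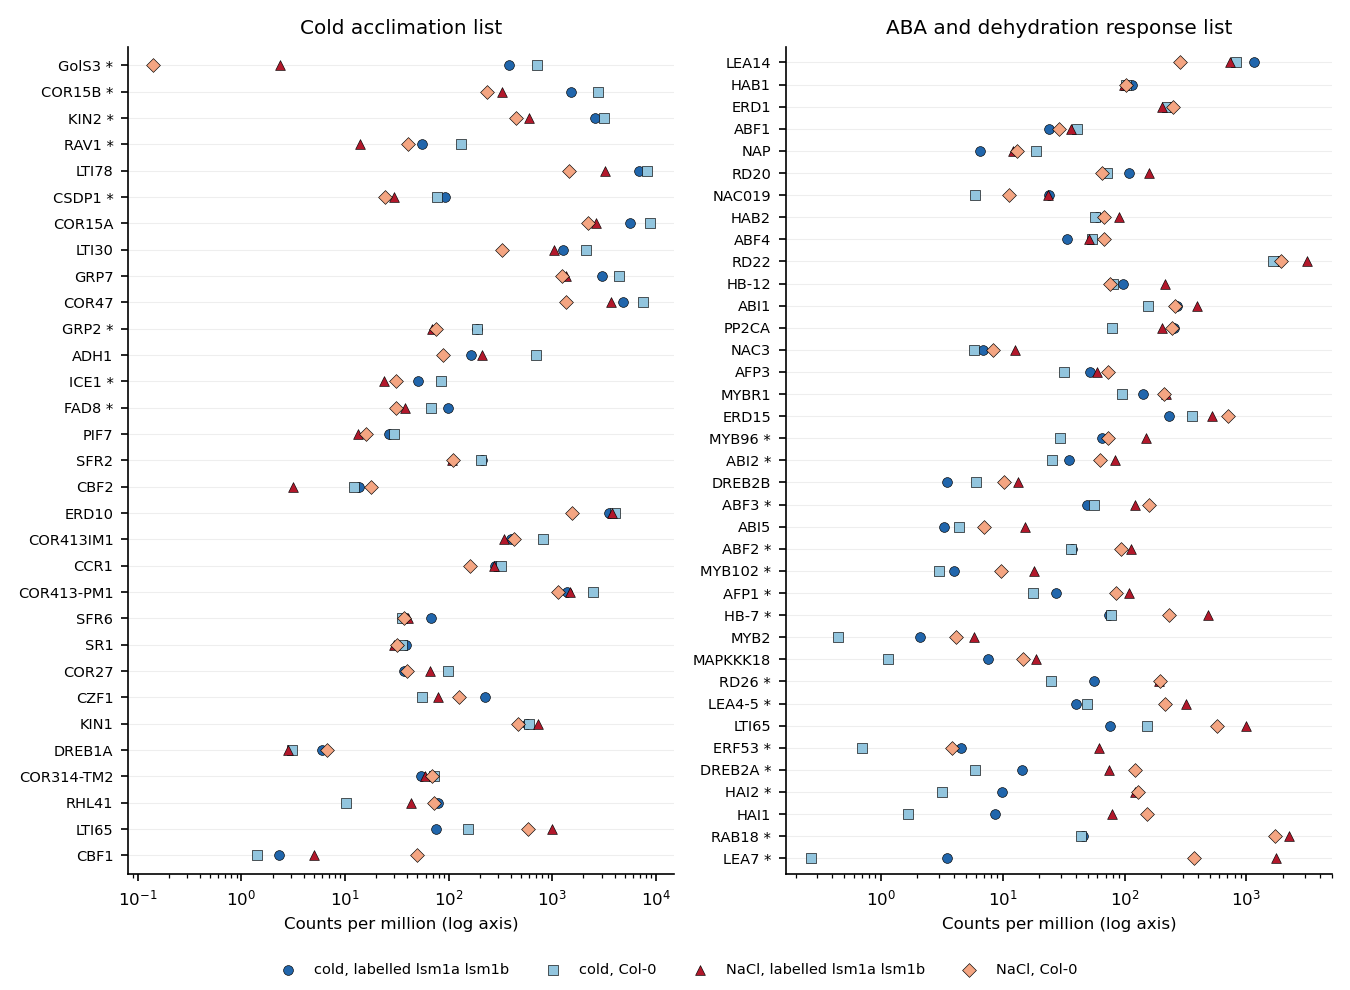
CPM (log axis) of every tested member of the cold acclimation list (left) and the ABA and dehydration list (right) in the 4 libraries; an asterisk marks called genes. GolS3 shows the widest gap between the states on the left, with the cold libraries higher, and LEA7 on the right, with the NaCl libraries higher.

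ABA synthesis and signalling genes were called in both directions, 1 or 2 a list. In ABA metabolism, 2 of the 13 tested members were called higher and 1 lower, against 5.97% and 6.36% of all genes tested. ABA1, the zeaxanthin epoxidase at the start of the pathway, had 660 and 820 CPM in cold, against 65.5 and 55.9 CPM in NaCl (log2 difference 3.60 ± 0.27). CYP707A1, an ABA 8'-hydroxylase that breaks the hormone down, had 6.94 and 7.78 CPM in cold, against 92.6 and 60.8 CPM in NaCl (log2 difference -3.35 ± 0.30). NCED4, a carotenoid cleavage enzyme, was the other higher gene (2.75 ± 0.26), whereas NCED3, the stress-induced step of ABA synthesis, had 81.2 and 17.9 CPM in cold, against 136 and 171 CPM in NaCl and was not called (log2 difference -1.98 ± 0.71, adjusted p = 0.138). The median of this list changed sign with the scaling, from 0.15 under TMM to -0.02 under total counts. In the list of ABA receptors and kinases, 2 of the 13 tested members were called higher and 1 lower: the kinase SNRK2-8 (3.41 ± 0.55) and the receptor RCAR3 (1.51 ± 0.24) were higher and the kinase SNRK2.3 (-2.45 ± 0.45) was lower. OST1, the guard cell ABA kinase, was not called (-0.62 ± 0.26).

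Compatible solute genes divided by isoform. In galactinol and raffinose metabolism, 4 of the 10 tested members were called higher and 2 lower, with 2 higher without the genotype block. The galactinol synthases split: GolS3 and GolS1 were higher in cold, and GolS2 and GolS4 were lower. GolS1 had 85.6 and 235 CPM in cold, against 10.9 and 12.6 CPM in NaCl (log2 difference 3.60 ± 0.40). GolS2 had 18.9 and 3.89 CPM in cold, against 104 and 70.2 CPM in NaCl (log2 difference -3.27 ± 0.51). GolS4 had 3.02 and 0.53 CPM in cold, against 83.1 and 55.8 CPM in NaCl (log2 difference -5.53 ± 0.56). In none of the 4 did the states overlap. Scaled by length, GolS3 stood at 291 and 553 RPKM in cold, against 1.8 and 0.108 RPKM in NaCl, while GolS2 had 13.5 and 2.78 RPKM in cold, against 74.8 and 50.3 RPKM in NaCl (RPKM, reads scaled by transcript length and library total and so comparable between genes). MIPS1, which makes the inositol precursor (2.22 ± 0.41), and SIP1, of the raffinose synthase family (1.61 ± 0.23), were also higher. In proline metabolism, 1 of the 8 tested members was called higher and 3 lower. P5CS2, one of the pair of enzymes that start proline synthesis, had 948 and 1181 CPM in cold, against 101 and 128 CPM in NaCl (log2 difference 3.21 ± 0.23), while its stress-induced partner P5CS1 had 275 and 891 CPM in cold, against 776 and 914 CPM in NaCl and was not called (log2 difference -0.77 ± 0.44, adjusted p = 0.283). Lower were the catabolic genes ERD5, proline dehydrogenase (-1.71 ± 0.23), and ALDH12A1, pyrroline-5-carboxylate dehydrogenase (-1.83 ± 0.24), and DELTA-OAT, ornithine aminotransferase (-1.33 ± 0.24).

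In starch and sucrose metabolism, 7 of the 29 tested members were called higher and 7 lower. The sucrose synthases parted, with SUS1 at 813 and 1540 CPM in cold, against 174 and 88.7 CPM in NaCl (log2 difference 3.17 ± 0.58) and SUS3 at 9.25 and 10.4 CPM in cold, against 114 and 113 CPM in NaCl (log2 difference -3.53 ± 0.21). CT-BMY, the chloroplast beta-amylase that releases maltose from starch and is known for cold induction, had 3267 and 3450 CPM in cold, against 339 and 578 CPM in NaCl (log2 difference 2.92 ± 0.34). APL3, a subunit of ADP-glucose pyrophosphorylase, was the lowest (-3.92 ± 0.23), the maltose exporter RCP1 was also lower (-2.71 ± 0.29), and ATSPS4F, a sucrose phosphate synthase, was higher (2.84 ± 0.22). In the sugar and starvation response list, 3 of the 33 tested members were called higher and 3 lower (7 lower by DESeq2), against 5.97% and 6.36% of all genes. The hexose carrier STP1 (2.81 ± 0.48), TPS11 (2.27 ± 0.21) and the sucrose carrier SUC1 (1.72 ± 0.22) were higher. GBF6 (-3.43 ± 0.44), EXO (-3.14 ± 0.57) and TPS5 (-2.36 ± 0.23) were lower.

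The circadian clock list had the largest share of higher genes among the lists by name: 17 of the 33 tested members were called higher and 4 lower, with a median of 2.27. CCA1 and COL2 led it. The night-light-inducible and clock-regulated genes LNK3 and LNK2, coactivators of the morning factors, had 147 and 178 CPM in cold, against 3.79 and 2.67 CPM in NaCl for LNK3 (AT3G12320) and 181 and 187 CPM in cold, against 6.13 and 4.31 CPM in NaCl for LNK2 (AT3G54500), with log2 differences of 5.66 ± 0.32 and 5.15 ± 0.27. RVE1, a MYB relative of CCA1, had 116 and 197 CPM in cold, against 6.35 and 5.62 CPM in NaCl (log2 difference 4.66 ± 0.34), and BBX18 had 138 and 121 CPM in cold, against 2.47 and 1.97 CPM in NaCl. In each of these, both cold libraries lay far above both NaCl libraries, by more than they differed from each other. LHY, the partner of CCA1, was listed for cold only, with 2658 and 2459 counts, and had 59 and 57 counts in PEG. The 4 lower members, named after their values were seen, were evening genes: ELF4 (-3.38 ± 0.45), PCL1 or LUX (-2.37 ± 0.21), BOA (-2.09 ± 0.36) and FKF1 (-1.62 ± 0.30). ELF4 and PCL1 encode parts of the evening complex, and ELF4 had 3.92 and 10.7 CPM in cold, against 70 and 68.6 CPM in NaCl. TOC1, the evening repressor of CCA1, had 96.3 and 133 CPM in cold, against 128 and 144 CPM in NaCl and was not called (log2 difference -0.26 ± 0.20), nor was GI (-0.55 ± 0.39). PRR9, also named after its values were seen, is the first of the daily series of pseudo-response regulators and had 91.5 and 32.4 CPM in cold, against 3.15 and 2.62 CPM in NaCl (log2 difference 4.25 ± 0.42), and PRR7 had 88 and 109 CPM in cold, against 34.2 and 13.1 CPM in NaCl and was not called (log2 difference 2.21 ± 0.50, adjusted p = 0.0645). In PEG, CCA1 had 6.72 and 19.5 CPM, on the side of the NaCl plates. The hour of harvest is not in the labels, so a difference in time of day and a difference in treatment cannot be told apart for these genes. Of the 17 higher clock genes 11 held ACGTG and 4 held AAAATATCT in their promoters, and of the 4 lower ones 4 and 3. The shares over all nuclear protein-coding promoters are given with the sequences above. These counts cover few genes, picked by their calls, and were not tested.

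**Figure D5:**
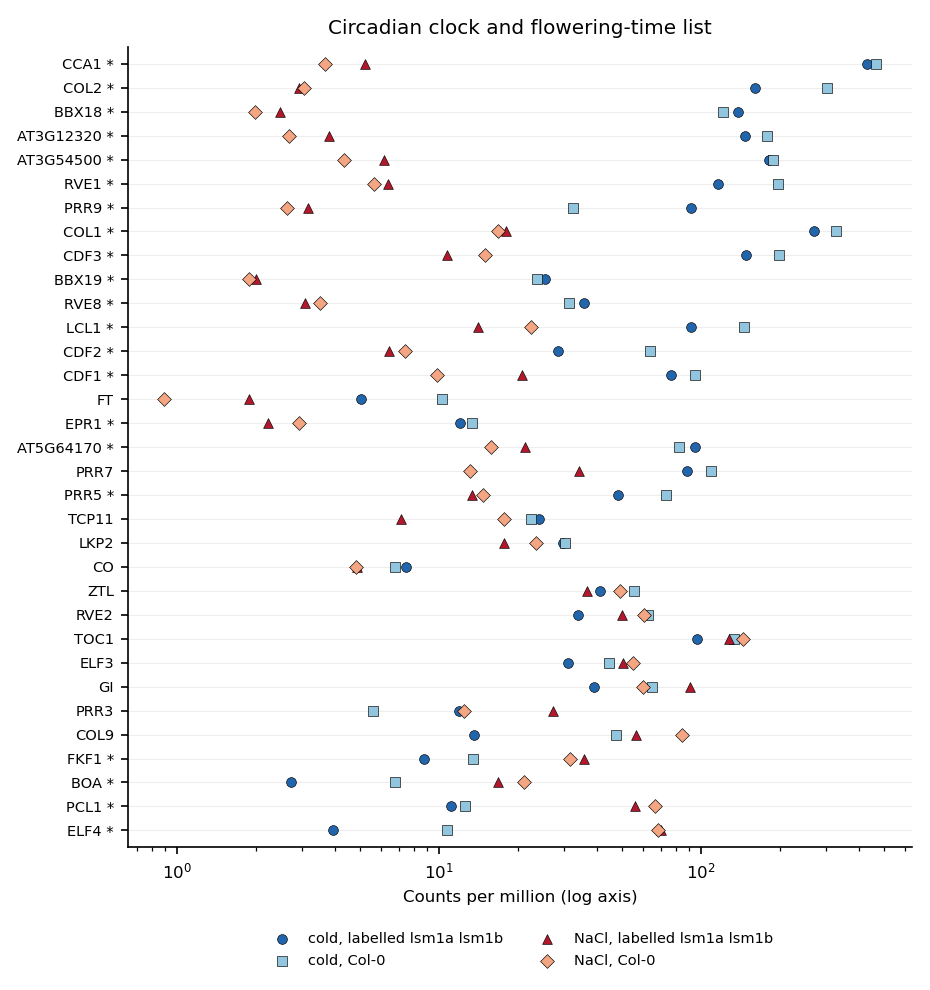
CPM (log axis) of the 33 tested clock and flowering-time genes in the 4 libraries; an asterisk marks called genes. Morning genes such as CCA1, RVE1 and PRR9 were higher in both cold libraries, and ELF4, PCL1 and BOA in both NaCl libraries.

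Every called member of the nuclear photosynthesis and photoprotection lists was higher in cold. In Rubisco and the Calvin cycle, 10 of the 21 tested members were called higher and 0 lower (0 at an unadjusted p under 0.05, 0 by DESeq2 and 0 by limma-voom lower), or 6 higher under total count scaling, with a median of 1.33. RCA, the Rubisco activase, had 4613 and 5131 CPM in cold, against 1073 and 1386 CPM in NaCl (log2 difference 2.0 ± 0.30), and FBA1, a plastid aldolase, had 889 and 1162 CPM in cold, against 248 and 343 CPM in NaCl (log2 difference 1.80 ± 0.22). The next were SBPASE (1.72 ± 0.22), GAPA-2 (1.71 ± 0.26), HCEF1, a fructose bisphosphatase (1.68 ± 0.23), and GAPA (1.51 ± 0.25). RBCS1A, a main Rubisco small subunit gene, had 12115 and 13181 CPM in cold, against 8272 and 6743 CPM in NaCl and was not called (log2 difference 0.76 ± 0.38). In light harvesting and photosystems, 3 of the 49 tested members were called higher and 0 lower, a higher share of 6.1% that is near the background of 5.97%. At the lower end the list had 2 at an unadjusted p under 0.05, 1 by DESeq2 and 0 by limma-voom, while DESeq2 called 16 members higher. LHCB7 (AT1G76570), a minor light harvesting protein (1.63 ± 0.28), NPQ4, the PsbS sensor of excess light (1.52 ± 0.27), and Lhca5 (1.29 ± 0.18) were the called members. CAB2 had 3042 and 13823 CPM in cold, against 2136 and 2692 CPM in NaCl and was not called (log2 difference 1.44 ± 0.60, adjusted p = 0.175). In Col-0 the summed CPM of this list was 118601 in cold and 60012 in NaCl, and in the libraries labelled lsm1a lsm1b 64439 and 56417, so the genotypes differed in size.

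In photoprotection and chlorophyll synthesis, 13 of the 34 tested members were called higher and 0 lower (1 at an unadjusted p under 0.05, 0 by DESeq2 and 0 by limma-voom lower), with a median of 0.82. ELIP2 led, and its paralog ELIP1 had 573 and 450 CPM in cold, against 87.1 and 94.7 CPM in NaCl (log2 difference 2.48 ± 0.24). BETA-OHASE 2, which makes zeaxanthin, had 47.9 and 68.5 CPM in cold, against 3.75 and 6.22 CPM in NaCl (log2 difference 3.56 ± 0.23). CH1, chlorophyllide a oxygenase, had 300 and 405 CPM in cold, against 28.4 and 40.8 CPM in NaCl (log2 difference 3.36 ± 0.20). GUN5, the H subunit of magnesium chelatase (2.49 ± 0.30), and GUN4, its activator (2.44 ± 0.34), were higher as well. NPQ1, violaxanthin de-epoxidase, was not called (0.72 ± 0.27). Light during the treatment was 40 µmol m-2 s-1 in cold and is not given for NaCl.

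The organelle genomes went the other way. Of the chloroplast-encoded genes, 0 of the 84 tested members were called higher and 53 lower (0 at an unadjusted p under 0.05, 0 by DESeq2 and 0 by limma-voom higher), with a median of -1.94. Of the mitochondrion-encoded genes, 0 of the 20 tested members were called higher and 4 lower (0 at an unadjusted p under 0.05, 0 by DESeq2 and 0 by limma-voom higher), with a median of -1.61, and 31 further ones were listed for NaCl only. Organelle transcripts mostly lack a long poly(A) tail, and the labels do not say how RNA was selected. With the organelle genes left out of the fit, 977 nuclear genes were called higher and 1010 lower. Among ribosomal proteins picked by cytosolic or eukaryotic-type product names, 29 of the 121 tested members were called higher and 2 lower, with a median of 0.55. Some of these encode organelle proteins, such as EMB3105 of the plastid and HLL of the mitochondrion. Under total count scaling 18 of them were called higher.

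Genes of secondary metabolism were called in both directions. In the flavonoid list, 9 of the 31 tested members were called higher and 3 lower, with 7 lower by DESeq2. Chalcone synthase TT4, the entry to flavonoids, had 1614 and 1904 CPM in cold, against 300 and 397 CPM in NaCl (log2 difference 2.34 ± 0.25). MYBL2, a repressor of anthocyanin genes, had 44.8 and 70.1 CPM in cold, against 6.05 and 13.3 CPM in NaCl (log2 difference 2.64 ± 0.25). PAL2 (2.17 ± 0.36) was higher, whereas PAL4 (-2.32 ± 0.42), 4CL2 (-2.16 ± 0.21) and 4CL1 (-2.10 ± 0.34), phenylpropanoid genes that also feed lignin, were lower. The late anthocyanin genes DFR and LDOX had ratios of opposite sign in the genotypes, with 13.8 and 14.6 CPM in cold, against 4.34 and 43.9 CPM in NaCl for DFR and 17.3 and 20.2 CPM in cold, against 5.11 and 42.5 CPM in NaCl for LDOX, and neither was called. Glucosinolates are the sulphur-rich defence compounds of this family. In their list 6 of the 35 tested members were called higher and 2 lower, the latter near the background of 6.36%. DESeq2 called 5 lower and limma-voom 5. TGG2, a myrosinase, was higher (2.31 ± 0.28), as were FMO GS-OX1 (1.65 ± 0.20), BCAT4 (1.62 ± 0.18) and BAT5 (1.27 ± 0.20) of the methionine-derived branch. MYB34, a regulator of the tryptophan-derived branch, had 6.03 and 4.68 CPM in cold, against 54.6 and 37 CPM in NaCl and was lower (log2 difference -3.08 ± 0.23), as was SOT16, a sulphotransferase (-1.59 ± 0.18).

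In the sodium transport list, 0 of the 16 tested members were called higher and 2 lower (2 at an unadjusted p under 0.05, 1 by DESeq2 and 1 by limma-voom higher), a lower share of 12.5% against 6.36% of all genes. SOS1, the plasma membrane sodium exporter, had 14 and 14.9 CPM in cold, against 15.6 and 17.1 CPM in NaCl (log2 difference -0.18 ± 0.23, adjusted p = 0.609). NHX1, a vacuolar antiporter, had 142 and 140 CPM in cold, against 138 and 166 CPM in NaCl (log2 difference -0.10 ± 0.20, adjusted p = 0.741). NHX2, its close relative, had 13.9 and 10.1 CPM in cold, against 44.8 and 44.1 CPM in NaCl and was lower in cold (log2 difference -1.91 ± 0.24), as was SOS5, a cell surface arabinogalactan protein (-1.32 ± 0.25). In potassium and calcium transport, 2 of the 15 tested members were called higher and 3 lower: CAX1 (1.84 ± 0.27) and ACA8 (1.16 ± 0.21) were higher, and KUP6 (-3.75 ± 0.22), KT1 (AKT1, -2.14 ± 0.25) and CAX3 (-1.94 ± 0.28) were lower. Among aquaporins, 0 of the 17 tested members were called higher and 2 lower (0 at an unadjusted p under 0.05, 0 by DESeq2 and 0 by limma-voom higher): GAMMA-TIP (-1.95 ± 0.27) and RD28 (-2.26 ± 0.23). RD28 had 82.7 and 9.9 CPM in cold, against 459 and 40.4 CPM in NaCl, with log2 ratios within the genotypes of -2.47 and -2.02. Its fitted difference was 0.19 without the NaCl library labelled lsm1a lsm1b. That fit had no genotype block and set both genotypes in cold against Col-0 alone in NaCl.

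Phosphate and sulphate supply genes were lower in cold more often than higher. In phosphate starvation, 1 of the 23 tested members was called higher and 10 lower (6 lower without the genotype block), with a median of -1.51. PS2, a phosphatase induced by phosphate starvation, had 3.02 and 0.972 CPM in cold, against 26.9 and 12.6 CPM in NaCl (log2 difference -3.39 ± 0.32). PHT1;4, a phosphate importer, had 2.82 and 1.59 CPM in cold, against 22.4 and 16.2 CPM in NaCl (log2 difference -3.16 ± 0.29). SRG3 (-3.12 ± 0.24), SPX1, a phosphate sensor (-2.74 ± 0.25), PAP17 (-2.62 ± 0.19) and the higher G3Pp1, a glycerol-3-phosphate transporter (2.46 ± 0.38), completed the leading members. PHR1, the transcription factor over this response, was not called (0.95 ± 0.19). In sulphate supply, 1 of the 19 tested members was called higher and 8 lower, with a median of -1.13. LSU1, a marker of sulphur limitation, had 0.704 and 0.177 CPM in cold, against 15.3 and 21.5 CPM in NaCl (log2 difference -5.40 ± 0.66). SULTR1;2, the main root importer of sulphate, had 2.62 and 1.77 CPM in cold, against 63.8 and 82.2 CPM in NaCl (log2 difference -5.06 ± 0.35). LSU3 (-4.19 ± 0.59), SULTR4;2 (-2.98 ± 0.55) and SHM7 (-2.48 ± 0.25) were lower, and SULTR3;1 was higher (3.28 ± 0.33). Substrate and stress differed together, so supply from soil or plate and the stress cannot be told apart.

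In iron supply, 6 of the 22 tested members were called higher and 2 lower. FRO7, the chloroplast ferric reductase, had 67.2 and 87 CPM in cold, against 3.24 and 5.8 CPM in NaCl (log2 difference 4.13 ± 0.25). The ferritins FER3 (2.91 ± 0.21) and FER4 (2.49 ± 0.22), which store iron, were higher, as was CGLD27 (1.73 ± 0.20), whereas YSL2 (-3.78 ± 0.32) and PYE, a regulator of iron deficiency (-1.85 ± 0.27), were lower. The median of this list changed sign with the scaling, from 0.09 under TMM to -0.09 under total counts. In copper and zinc supply, 3 of the 16 tested members were called higher and 3 lower. CSD2, the chloroplast copper/zinc superoxide dismutase, had 455 and 373 CPM in cold, against 71.8 and 25 CPM in NaCl (log2 difference 3.28 ± 0.40), and CSD1 (2.56 ± 0.31) and their chaperone CCS (2.17 ± 0.23) were higher with it. CCH (-1.63 ± 0.19), HMA4 (-1.45 ± 0.22) and ZAT (-1.37 ± 0.21) were lower. In nitrate supply, 2 of the 24 tested members were called higher and 2 lower, near the background of 5.97% and 6.36%. The glutamine synthetases GSR 1 (2.31 ± 0.24) and GLN1;4 (2.18 ± 0.36) were higher, and NRT1.5 (-2.94 ± 0.40) and RFNR1 (-2.18 ± 0.22) were lower. Root markers were higher in NaCl beside all of these lists, at 210 and 155 CPM in cold against 1823 and 2126 CPM in NaCl. Without PYK10 these sums were 73.8 and 58.3 CPM in cold, against 399 and 273 CPM in NaCl. IRT1, PHT1;1 and NRT2:1 are root markers and also members of the iron, phosphate and nitrate lists. The part of root markers in these results was not tested.

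Defence genes were split between tested and one-state genes. In the salicylic acid and defence list, 2 of the 24 tested members were called higher and 3 lower, shares of 8.3% and 12.5%, and 11 further members, PR1 and BGL2 (PR2) among them, were listed for cold only. PR5, a thaumatin-like protein, had 1585 and 185 CPM in cold, against 79.8 and 2.2 CPM in NaCl (log2 difference 5.28 ± 0.66). PAD4, a regulator of salicylic acid signalling, had 76.9 and 25.3 CPM in cold, against 7.84 and 5.99 CPM in NaCl (log2 difference 2.69 ± 0.39). Both were higher in the lsm1a lsm1b cold library than in the Col-0 cold library. HCHIB, a basic chitinase (-4.75 ± 0.26), PR4 (-2.65 ± 0.39) and WRKY60 (-1.58 ± 0.26) were lower. WRKY60 had 10.9 and 1.77 CPM in cold, against 30.5 and 5.76 CPM in NaCl, with log2 ratios within the genotypes of -1.48 and -1.64. Its fitted difference was 0.13 without the NaCl library labelled lsm1a lsm1b, in a fit without the genotype block and with Col-0 alone in NaCl. The summed CPM of the list was 2977 and 422 in cold, against 641 and 692 in NaCl, so that 1 cold library stood apart. The direction of the calls turned with it: DESeq2 called 1 member higher and 7 lower without the lsm1a lsm1b cold library, and 11 higher and 2 lower without the Col-0 cold library. Without the genotype block edgeR called 0 higher and 1 lower, with 4 higher and 2 lower at an unadjusted p under 0.05. In the jasmonate list, 1 of the 30 tested members was called higher and 2 lower, shares of 3.3% and 6.7% that lie near or under the background of 5.97% and 6.36%: TIFY7 (JAZ9) was higher (3.04 ± 0.48), and CYP94B3, which inactivates jasmonoyl-isoleucine (-4.37 ± 0.41), and AOC4 (-2.37 ± 0.37) were lower. In the ethylene list, 0 of the 29 tested members were called higher and 3 lower (4 at an unadjusted p under 0.05, 1 by DESeq2 and 0 by limma-voom higher). ACS2, an ACC synthase, had 3.42 and 0.265 CPM in cold, against 42.7 and 43.5 CPM in NaCl (log2 difference -4.93 ± 0.93), and Rap2.6L (-3.11 ± 0.24) and RAP2.6 (-1.52 ± 0.26) were lower too. Of the zinc finger, touch and calcium genes, 1 of the 22 tested members was called higher and 1 lower, each 4.5% and under the background: CAM9 (2.38 ± 0.20) and TCH4, a xyloglucan-modifying enzyme (-3.60 ± 0.67).

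In the auxin list, 3 of the 26 tested members were called higher and 3 lower, against 5.97% and 6.36% of all genes tested. IAA29 had 2.92 and 18 CPM in cold, against 0.17 and 1.12 CPM in NaCl (log2 difference 4.01 ± 0.38), and SHY2 (2.21 ± 0.20) and AXR3 (1.68 ± 0.23), which are Aux/IAA repressors like IAA29, were also higher. GH3.3 (-2.92 ± 0.27), BRU6 (-2.19 ± 0.37) and WES1 (-1.47 ± 0.20), of the GH3 family that conjugates auxin, were lower. In the cytokinin list, 3 of the 22 tested members were called higher and 2 lower: the response regulators ARR7 (3.66 ± 0.60), ARR4 (2.51 ± 0.22) and RR5 (2.28 ± 0.33) were higher, and LOG5 (-2.64 ± 0.34) and LOG7 (-1.61 ± 0.29), which release active cytokinin, were lower. In gibberellin and brassinosteroid, 1 of the 24 tested members was called higher and 2 lower, shares of 4.2% and 8.3% near the background, with GA3OX1, a gibberellin synthesis enzyme, at 2.39 ± 0.33, GASA4 at -2.15 ± 0.21 and the receptor GID1B at -1.27 ± 0.22.

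In cell expansion and wall, 1 of the 35 tested members was called higher and 9 lower (5 lower without the genotype block), with a median of -0.82. XTH18, a xyloglucan endotransglucosylase, had 4.43 and 0.972 CPM in cold, against 31.1 and 34.5 CPM in NaCl (log2 difference -3.83 ± 0.67), and EXPA4, an expansin, had 43.6 and 22.3 CPM in cold, against 459 and 138 CPM in NaCl (log2 difference -3.02 ± 0.29). EXLA1 (-2.65 ± 0.39), XTH7 (-2.58 ± 0.40) and XTH20 (-2.30 ± 0.30) were lower, while XTH6 was higher (3.18 ± 0.51). Root and xylem markers moved the same way, at 91 and 74.3 CPM of xylem markers in cold against 315 and 352 CPM in NaCl, and their part was not tested. In the cell cycle list, 1 of the 38 tested members was called higher and 2 lower, near or under the background: E2F3 (1.49 ± 0.26) was higher, and CYCD3;1 (-1.65 ± 0.24) and SIM (-2.48 ± 0.27), an inhibitor of cell division in trichomes, were lower. In cuticle and wax, 2 of the 32 tested members were called higher and 8 lower (5 lower without the genotype block). LTP3 had 20.1 and 7.16 CPM in cold, against 887 and 551 CPM in NaCl (log2 difference -5.85 ± 0.35), and LTP2 (-3.64 ± 0.32), KCS2 (-3.45 ± 0.44) and CER1, of alkane synthesis (-2.0 ± 0.20), were lower beside LTP4. LACS1 (1.92 ± 0.19), an acyl-CoA synthetase, and LTPG2 (1.85 ± 0.21), the second named after its values were seen, were higher.

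In the heat shock list, 0 of the 24 tested members were called higher and 5 lower (1 at an unadjusted p under 0.05, 1 by DESeq2 and 0 by limma-voom higher), with 3 lower without the genotype block. HSFA6A, a heat stress factor known to respond to salt, had 0.201 and 1.94 CPM in cold, against 28.7 and 37.9 CPM in NaCl (log2 difference -5.16 ± 0.69), and MBF1C (-2.58 ± 0.38), HSP70 (-2.0 ± 0.21), HSFC1 (-1.48 ± 0.20) and HSP90.1 (-1.07 ± 0.19) were lower with smaller differences. In oxidative stress, 7 of the 42 tested members were called higher and 4 lower, with 2 lower without the genotype block and 8 by DESeq2. GPX7, a chloroplast glutathione peroxidase, had 29.9 and 26.2 CPM in cold, against 1.06 and 0.655 CPM in NaCl (log2 difference 5.04 ± 0.31), CAT2, the leaf catalase of photorespiration, had 2390 and 1679 CPM in cold, against 346 and 380 CPM in NaCl (log2 difference 2.47 ± 0.30), and GSTF6 was higher (2.52 ± 0.32). RBOH F, an NADPH oxidase, was lower (-2.14 ± 0.31), beside the higher CSD2 and CSD1 given above. In low oxygen and fermentation, 1 of the 12 tested members was called higher and 0 lower, against 5.97% and 6.36% of all genes tested. Lower were 3 at an unadjusted p under 0.05, 1 by DESeq2 and 0 by limma-voom. The higher gene was SUS1, and ADH1 was not called (1.32 ± 0.98). In the senescence list, 2 of the 22 tested members were called higher and 0 lower, against 5.97% and 6.36% of all genes tested. Lower were 2 at an unadjusted p under 0.05, 2 by DESeq2 and 1 by limma-voom. The higher genes were BCB (2.93 ± 0.49) and GSR 1. In the list of LSM1-7 and decapping genes, 0 of the 21 tested members were called higher and 0 lower, with 7 at an unadjusted p under 0.05, 1 by DESeq2 and 1 by limma-voom higher, and 1 at an unadjusted p under 0.05, 0 by DESeq2 and 1 by limma-voom lower. DCP2, the decapping enzyme, had a difference of 0.48 ± 0.30, and XRN4, the cytoplasmic exonuclease, -0.26 ± 0.18.

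A file lists a gene only where at least 1 library of its state reached 1 RPKM, so genes on in a single state stand outside the test and have no value in the other. For cold only, 615 genes were listed, of which 75 were also listed in PEG, 254 had at least 1 RPKM in both cold libraries and 29 at least 5. The 8 with the highest level were LHY, AT3G01345, AT5G03350, AT3G55580, BGL2, AT3G09450, PR1 and FRO6. LHY had 95.5 and 73.2 RPKM in cold. FRO6, a ferric reductase of leaf cells, had 27.8 and 58.1 RPKM, and AT3G55580, of the RCC1 family, had 64.2 and 79.7 RPKM. PR1, the marker of salicylic acid defence, had 121 and 4.13 RPKM, BGL2 126 and 12.4 RPKM, and the lectin AT5G03350 132 and 14.2 RPKM. These 3 were thus mostly in the lsm1a lsm1b cold library, whereas AT3G01345 was mostly in Col-0, at 1.87 and 149 RPKM.

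For NaCl only, 1915 genes were listed, of which 1483 were also listed in PEG, 1255 had at least 1 RPKM in both NaCl libraries and 284 at least 5. AT1G55990, a glycine-rich protein, had 396 and 313 RPKM, and AT4G33610, another, had 460 and 226 RPKM. The LEA family proteins AT3G17520 and AT3G15670 had 354 and 171 RPKM and 189 and 74.5 RPKM. The others were AT5G28450, of the chlorophyll-binding family, with 185 and 267 RPKM, DOX1, an alpha-dioxygenase, with 130 and 181 RPKM, AT2G18370, of the lipid-transfer superfamily, with 148 and 117 RPKM, and SAG29, a sugar transporter of senescing tissue, with 161 and 95.1 RPKM. Each was well above the listing limit in both NaCl libraries, and 8 of these 8 were listed in PEG. The seed storage and oil body genes CRA1, CRU3, OLEO1 and OLEO2 also stood in this group, as did 15 root markers.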

How the data were processed

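RNA from leaves was sequenced by standard Illumina protocols, per the labels' protocols, and TAIR10, TopHat2 and DESeq2 are named in the submitters' processing notes without roles. Neither strandedness nor the counter is given in the sources used here. The authors deposited raw read counts per gene with RPKM, 1 table for each stress, and here the deposited counts were tested. Loci were taken from the locus code, since 270 NaCl entries carry a contradicting transcript name. Genes listed for both states were fitted with edgeR 4.0.16 in R 4.3.3 (TMM, low-count filter by state, quasi-likelihood test, genotype as block, residual degrees of freedom 1, adjusted p under 0.05 after Benjamini-Hochberg). SE is the absolute log2 difference over the root of F. Ratios within a genotype used a prior count of 2 and have no replicate. DESeq2 1.42.0 and limma 3.58.1 were alternatives. Depth was 10289392 to 22639128 counts. Simulated data used these means, the same spread for every gene (coefficient of variation 0.288), no genotype difference and 200 changed genes. There the fit recovered 8.96% of 2-fold, 88.06% of 4-fold and 100% of 16-fold changes among 17469 genes, with 4 false calls. In the real libraries genes differ in spread, so these shares may not carry over. Names and promoters came from RefSeq (TAIR10.1), and 1220 of 1259 list names matched a locus. Paralogs, and genes overlapping on opposite strands, may share reads.

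The members and lists were chosen with earlier results of these data known. Named were LSM1A and LSM1B, the 12 highest and 12 lowest called nuclear protein-coding genes with at least 10 CPM in both libraries of the higher state and 2-fold in both genotypes, up to 6 called members of each list, textbook members not called, and the 8 highest one-state genes.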

Additional observations from a re-analysis of the deposited data

Results flagged for a closer look

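Of 1186 list members tested, 29 were at least 2-fold higher in cold in 1 genotype and at least 2-fold lower in the other. Over all 17492 genes tested 188 did so, 154 of them higher in cold in the libraries labelled lsm1a lsm1b and lower in Col-0 and 34 the reverse, so the skew given below for list members was present over all genes. The difference between the genotypes was not tested, since 4 libraries leave no spread for it, and none of these genes was called. Values are log2 ratios of CPM, cold over NaCl, for the libraries labelled lsm1a lsm1b and then for Col-0. In 23 the libraries labelled lsm1a lsm1b were higher in cold and the Col-0 libraries lower. Defence regulators among them were WRKY40 (2.08 and -3.76), FRK1 (2.38 and -1.23), WRKY46 (2.34 and -2.26), EDS5 (1.78 and -1.50), CBP60G (3.72 and -1.47) and NPR3 (1.55 and -1.69). Zinc finger and touch genes were STZ (1.74 and -3.52), CZF1 (1.49 and -1.20), TCH3 (1.47 and -2.02), ZAT7 (2.39 and -3.07), SZF1 (2.26 and -3.78) and ZF1 (2.74 and -2.44). Ethylene response factors were ERF11 (1.26 and -3.62), ERF4 (1.41 and -1.45), ERF1 (1.75 and -2.40) and ERF5 (2.32 and -2.25). The others were LOX4 (1.57 and -2.41), MDHAR (1.58 and -1.66), AT3G13610 (2.87 and -5.22) and AT5MAT (2.04 and -1.30), and also LDOX (1.74 and -1.07), DREB1A (1.05 and -1.07) and DFR (1.64 and -1.58). In 6 the direction was the reverse: YUC9 (-1.90 and 1.02), MIPS2 (-1.08 and 1.62), EXPA8 (-1.30 and 1.11), ASN1 (-1.31 and 1.03), FRO4 (-3.08 and 1.17) and KAT1 (-1.44 and 1.94). WRKY40, a fast stress-induced repressor, had 45.7 and 2.65 CPM in cold, against 10.7 and 37.3 CPM in NaCl, so the cold libraries differed from each other more than the NaCl libraries did.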

How the results depend on the processing

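The block was the genotype, since each state has 1 library per genotype: without it, 897 genes were higher and 902 lower, against 1044 and 1112 with it. Counts of higher and lower genes changed by over 1.5 times under DESeq2 (1658 and 1748), a test against a 2-fold difference (115 and 161) and a fit of 6 libraries with PEG (2536 and 2641). Other planned fits gave 756 to 1494 higher and 902 to 1471 lower. Requiring 4-fold in both genotypes left 247 higher and 428 lower of 981 and 1086. List members called higher numbered 150, with 25 against a 2-fold difference and 228 with 6 libraries, and lower 190, with 42 against a 2-fold difference. Leaving out 1 library needs a fit without block that assumes the lone library of a state to vary like the other state. Without the lsm1a lsm1b cold library edgeR then called 237 higher and 345 lower (list members 50 and 82), and without Col-0 cold 291 and 203 (51 and 37). Without either NaCl library it called 0. DESeq2, added after seeing the data, gave 673 to 1021 higher and 605 to 1396 lower in these 4 fits, with 605 lower without the NaCl library labelled lsm1a lsm1b and 673 and 662 without Col-0 NaCl. By DESeq2, 135 to 157 list members were higher and 136 to 260 lower. Limma-voom, also added later, called 128 higher and 58 lower (30 and 17 list members) without Col-0 cold, and 0 in the other 3 fits. Of 212 named genes, RD28 turned to 0.19 (edgeR) and 0.21 (DESeq2) and WRKY60 to 0.13 and 0.15 without the NaCl library labelled lsm1a lsm1b. Neither targeted gene was called: LSM1A ranged between -2.72 and -0.39 in the leave-outs that turned it (-2.72, -1.42, -1.24, -0.41 and -0.39), and LSM1B reached 0.04 in 1. In each leave-out a state holds a single genotype and the fit has no block, so a difference between the genotypes enters the difference between the states. How far this accounts for these turns was not tested. Depth limits genes of few reads in cold, where 10289392 counts were had.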
